A study of Mus musculus with 12 samples.

Results

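The genes described here encode 9 integrin chains and homing receptors of T cells, chosen by name from the roles of their proteins. They are *Itgal*, *Itgb2*, *Itga4*, *Itgb1*, *Itgb7*, *Itgae*, *Itgav*, *Selplg* and *S1pr1*, out of 26180 mouse genes with a curated RefSeq transcript. A BATF peak was counted for a gene when its summit lay in the gene body or within 50 kb of it. Of 5873 BATF regions over all libraries, 4 lay in the windows of these 9 genes.

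BATF, a basic leucine zipper (bZIP) transcription factor, was profiled by ChIP-seq in Th9 and Th17 cells of C57BL6/J mice on day 5. Naive CD4+ T cells were cultured toward Th9 with IL-4, IL-2 and TGF-β1 under blockade of IFN-γ, or toward Th17 with IL-6, TGF-β1, IL-23 and IL-1β under blockade of IFN-γ, IL-4 and IL-2. There were 2 BATF libraries of each cell type, Th9 libraries 1 and 2 and Th17 libraries 3 and 4, and an input and an IgG library carrying its number accompanied each one. The authors called peaks on every BATF library separately against input, against IgG and against both together, and the lists against both are used unless another is named. The cells were made in vitro and collected without restimulation, so the lists describe cultured cells and not cells taken from a tissue.

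Integrins are paired α and β chains that hold leukocytes to other cells and to matrix. *Itgal* and *Itgb2* encode LFA-1, which binds ICAM ligands, *Itga4* pairs with *Itgb1* in VLA-4 and with *Itgb7* in the gut homing receptor α4β7, and *Itgae* pairs with *Itgb7* in the receptor for E-cadherin on epithelium. *Itgav* encodes the αv chain, whose pairs bind matrix and can activate latent TGF-β, *Selplg* encodes the selectin ligand PSGL-1, and *S1pr1* encodes the sphingosine 1-phosphate receptor that draws T cells out of lymph nodes.

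The sequences below surround summits of called BATF peaks, first within the windows of these genes and then outside them. Each is 100 bp to either side of a summit, on the plus strand of GRCm38 (mm10), and the capitals mark a match to one of the motifs searched on both strands. These were AP-1 (TGACTCA, or TGAGTCA on the other strand), CRE (TGACGTCA), STAT (TTCNNNGAA), RUNX (TGTGGT) and a bZIP:IRF composite, in which GAAA joins TGACT or TGAGT directly or TTTC precedes either of them by 4 bases. The first 4 are all the regions in the gene windows, and each was called in Th17 library 3.
Itgal, upstream, chr7:127288110-127288310: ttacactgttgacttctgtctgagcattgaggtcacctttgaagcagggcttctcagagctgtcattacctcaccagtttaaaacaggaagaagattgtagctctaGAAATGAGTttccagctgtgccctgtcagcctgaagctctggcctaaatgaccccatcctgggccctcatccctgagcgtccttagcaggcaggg
Itgav, intron 2, chr2:83746438-83746638: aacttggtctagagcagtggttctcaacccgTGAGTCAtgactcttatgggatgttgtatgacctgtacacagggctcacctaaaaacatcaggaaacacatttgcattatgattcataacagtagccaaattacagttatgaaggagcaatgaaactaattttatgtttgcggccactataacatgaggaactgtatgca
S1pr1, upstream, nearer, chr3:115747530-115747730: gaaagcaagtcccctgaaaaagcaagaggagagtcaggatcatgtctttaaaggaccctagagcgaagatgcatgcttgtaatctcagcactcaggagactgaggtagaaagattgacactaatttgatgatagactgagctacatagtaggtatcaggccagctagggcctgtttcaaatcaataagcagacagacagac
S1pr1, upstream, farther, chr3:115761575-115761775: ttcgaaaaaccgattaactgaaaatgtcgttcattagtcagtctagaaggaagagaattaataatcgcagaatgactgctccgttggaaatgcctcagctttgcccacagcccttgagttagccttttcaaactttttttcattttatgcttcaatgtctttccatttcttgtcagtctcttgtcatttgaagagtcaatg

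The *Itgal* region holds a composite site, GAAATGAGT, and the *Itgav* region holds an AP-1 site, TGAGTCA. Neither *S1pr1* region matched any of the 5 motifs, which says only that these letters are not in the window. The next 4 lie farther upstream of the VLA-4 genes *Itga4* and *Itgb1*, outside the 50 kb windows, and were picked after their values were seen. They come from the outside regions that were called in several libraries or had the start site of a member nearest. Such a region nearer *Itgb1* matched no motif and is not shown.
Itga4, farthest, chr2:78961759-78961959: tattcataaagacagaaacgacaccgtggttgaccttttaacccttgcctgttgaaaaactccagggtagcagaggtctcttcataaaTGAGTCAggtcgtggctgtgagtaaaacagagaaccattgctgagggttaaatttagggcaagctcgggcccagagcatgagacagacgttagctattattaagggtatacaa
Itga4, middle, chr2:79122628-79122828: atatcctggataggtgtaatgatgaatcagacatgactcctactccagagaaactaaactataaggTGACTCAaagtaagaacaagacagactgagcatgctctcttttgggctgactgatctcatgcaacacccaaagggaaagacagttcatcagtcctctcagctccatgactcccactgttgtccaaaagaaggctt
Itga4, nearest, chr2:79124376-79124576: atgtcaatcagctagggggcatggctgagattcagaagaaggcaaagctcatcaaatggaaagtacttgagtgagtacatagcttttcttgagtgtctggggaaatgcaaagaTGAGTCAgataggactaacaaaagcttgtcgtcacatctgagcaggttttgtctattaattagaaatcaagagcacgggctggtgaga
Itgb1, farther, chr8:128535766-128535966: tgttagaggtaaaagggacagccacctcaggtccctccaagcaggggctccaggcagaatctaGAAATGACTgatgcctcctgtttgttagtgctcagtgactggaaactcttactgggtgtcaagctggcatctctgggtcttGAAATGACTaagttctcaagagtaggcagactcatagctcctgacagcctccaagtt

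These 3 *Itga4* regions hold an AP-1 site, and the *Itgb1* region holds GAAATGACT at 2 places. Since a motif match was one ground for picking them, their number is not a result. The other 2 peaks within 500 kb upstream of *Itga4*, 283 kb (Th9 library 1) and 203 kb (Th17 library 4) from it, hold no AP-1 site, and the shares of all peaks with one were 14.9%, 31.1%, 18.8% and 40.2% in libraries 1 to 4.

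**Figure D1:**
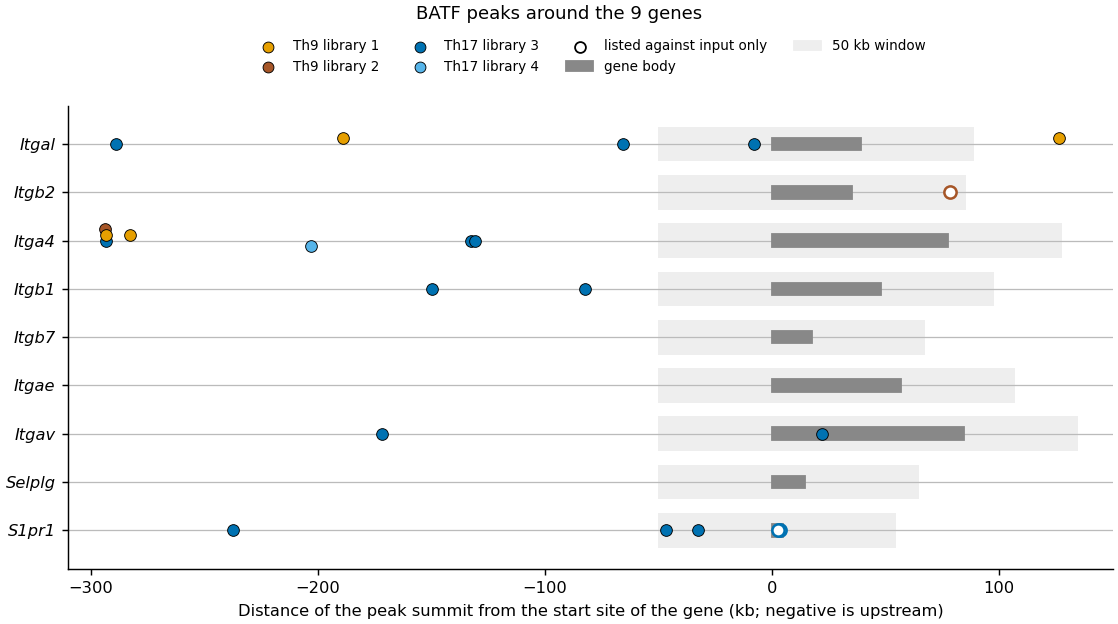
Summits of BATF peaks around the 9 genes, by distance from the start site of each gene (kb, negative is upstream). Filled points are peaks of the lists called against input and IgG, coloured by library, and open points are peaks within the windows that were listed against input only. Filled points within the grey 50 kb windows are 4 peaks of Th17 library 3, and the points at −294 kb of *Itga4* come from Th9 libraries 1 and 2 and Th17 library 3.

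Over all 9 genes, Th9 libraries 1 and 2 had a peak at 0 genes each, where 9.24% and 1.71% of all genes had one. Th17 library 3 had a peak at 3 genes, *Itgal*, *Itgav* and *S1pr1*, which is 33.3% of the 9 against 21.6% of all genes. Th17 library 4 had a peak at 0, with 1.24% of all genes having one. Taking either library of a cell type, 0 of 9 genes had a peak in Th9 cells and 3 of 9 in Th17 cells, where the shares of all genes were 10.4% and 22.0%. No gene had a peak in both cell types, as 3.75% of all genes did. With 9 genes, a single gene moves a share by more than the whole background share of Th9 cells, so the counts are not read as a difference from the background.

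The 4 member peaks all came from the library with the most peaks. The numbers of peaks were 1709 and 241 for Th9 libraries 1 and 2, and 4111 and 199 for Th17 libraries 3 and 4. Member peaks per library numbered 2 ± 2.83 in Th17 cells and 0 ± 0 in Th9 cells (mean ± SD, n = 2 libraries each). A two-sided exact permutation test gave p = 1 (adjusted p = 1 over 3 tests). With member peaks in 1 library of 4, all 6 permutations of the libraries give a difference of the same size, so the exact test could give no other p and does not bear on the difference. That is also so for member peaks as a percent of the peaks of a library, 0.0487 ± 0.0688% in Th17 and 0% in Th9 (exact permutation p = 1), and for genes with a peak per library, 1.5 ± 2.12 in Th17 and 0 in Th9 (exact permutation p = 1). With the lists against input only, the difference in percent (Th17 minus Th9) turned to −0.149 percentage points. For any counts, 2 libraries against 2 cannot give a p below 0.333. In Th17 library 3 the windows of the 9 genes, 1.28 Mb in all, held 3.13 peaks per Mb, and the windows of all genes together held 1.76. The first of these densities rests on 4 peaks. In libraries 1, 2 and 4 the windows of the 9 genes held 0 peaks per Mb, against 0.729, 0.111 and 0.0948 over all genes.

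**Figure D2:**
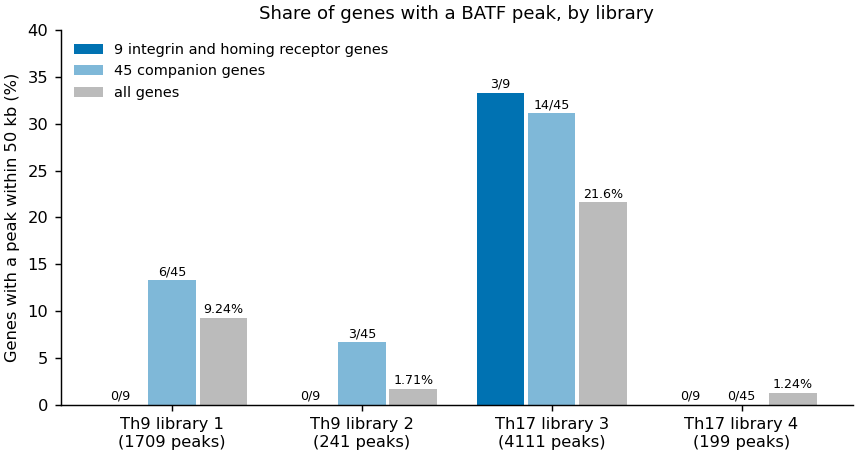
Percent of genes with a BATF peak within 50 kb (y axis) in each library, for the 9 integrin and homing receptor genes, 45 other adhesion and homing genes, and all genes. Counts stand above the bars; the 9 genes have 0 in 3 libraries and 3 in Th17 library 3, the library with 4111 peaks.

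The α chain of LFA-1 had the strongest of the 4 peaks. *Itgal* (gene ID 16408) spans 127296139 to 127335137 of chromosome 7 (plus strand), and the peak ran from 127288050 to 127288340, between genes, with its summit 8050 bp upstream of the start site. Its fold enrichment, the ratio of fragments at the summit to the local expectation of the peak caller, was 9.24, and its −log10 q was 11.6. In Th17 library 3 this peak ranked 316 of 4111 by q, and 92.3% of the list had a lower −log10 q. Against IgG only the fold enrichment was 6.99 (−log10 q 8.20), and against input only it was 10.2 (−log10 q 13). So the *Itgal* peak was listed against each control, and its fold enrichment differed by the control used. The composite site runs from 127288216 to 127288224 on the plus strand, 10 bp from the summit, in sequence that is not masked as repeat. Composite sites of this form were within 100 bp of the summit in 5.81% of the peaks of this library. The window held no AP-1 site, and GC bases made up 50.7% of it.

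The β chain of LFA-1, *Itgb2*, had no peak against input and IgG in any library. The gene occupies chromosome 10 from 77530329 to 77565708, and the closest peak in Th17 library 3 was 595 kb away. Against input only, Th9 library 2 listed a peak in this window from 77608637 to 77608815, in intron 1 of *Sumo3* and 2082 bp from the start site of that gene. Its fold enrichment was 5.33 and its −log10 q 2.84.

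The αv chain gene was the only one of the 9 with a peak inside the gene body in the lists against both controls. *Itgav* spans 83722303 to 83806917 of chromosome 2 (plus strand), and the peak, from 83746439 to 83746687, was in intron 2 with its summit 22141 bp downstream of the start site. Its fold enrichment was 5.65 and its −log10 q 4.12, which are the median values of the Th17 library 3 list. It was called against IgG only with a fold enrichment of 4.87 and against input only with 5.65. Repeat masking covers 43.8% of this peak, against a median of 13.3% over the peaks of the library. The AP-1 site, from 83746469 to 83746475, lies 66 bp from the summit, and 42.9% of its bases are masked. AP-1 sites were within 100 bp of the summit in 18.8% of the peaks of Th17 library 3. Among the 4 member regions 1 had one, which is 25% with an exact 95% binomial interval of 0.631% to 80.6% that covers counting error only.

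The receptor of lymph node egress had 2 peaks, both upstream in Th17 library 3. *S1pr1* spans 115710433 to 115715055 of chromosome 3 (minus strand), with no other curated gene in its window. The nearer peak, from 115747542 to 115747708, had its summit 32575 bp upstream of the start site and had 5.65-fold enrichment (−log10 q 4.12). Its fold enrichment was 5.65 against IgG only and 4.35 against input only. The farther peak, from 115761500 to 115761703, had its summit 46620 bp upstream, close to the edge of the 50 kb window, at a fold enrichment of 6.21 (−log10 q 5.02). This one had a fold enrichment of 6.21 against each of the 3 controls. Repeat masking covers 24.6% of the nearer peak and 0% of the farther one. Thus one of the *S1pr1* peaks stood at the median of its list and the other ranked 1311 of 4111.

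Against input only, Th17 library 3 listed 2 more peaks in the *S1pr1* gene itself. One, from 115711412 to 115711702 in the untranslated part of exon 2, had 6.78-fold enrichment (−log10 q 5.99). The other, from 115712566 to 115712744 in the coding part of exon 2, had 5.65-fold enrichment (−log10 q 4.10). Neither was called against IgG or against both controls.

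None of the 4 member regions overlapped a peak of another library in any of the 3 lists, so each rests on Th17 library 3. The closest summits of other libraries against both controls lay between 135 kb (Th9 library 1, from the *Itgal* region) and 13056 kb (Th9 library 2, from the same region). In all 4 regions the gene with the nearest start site was the member itself. None of the 4 summits lay within 1000 bp of a start site. Only 3.62% of all peaks of this library did, so the lack of one among 4 summits is not read as a difference. Of these summits 3 lay between genes and 1 in an intron, classes with 52.5% and 41.4% of all peaks.

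**Figure D3:**
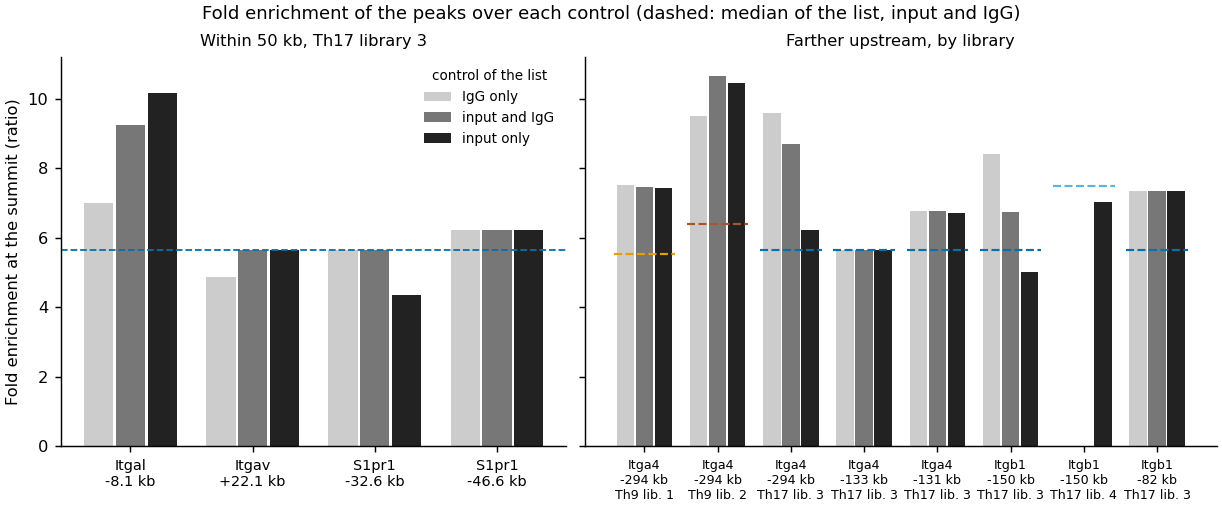
Fold enrichment at the summit (y axis, ratio, bars from 0) in the lists called against IgG, against input and IgG, and against input, for the 4 peaks in the gene windows (left) and for sites farther upstream of *Itga4* and *Itgb1* by library (right). Dashed lines are the median fold enrichment of the list against input and IgG of that library. The *Itgal* peak and the *Itga4* peaks at −294 kb stand above their medians under all 3 controls, and the *Itgb1* site at −150 kb has a single bar in Th17 library 4.

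The genes of VLA-4 had no peak in their windows in any list, but each had peaks farther upstream. *Itga4* spans 79255426 to 79333114 of chromosome 2 (plus strand). A region 294 kb upstream of it, between genes, was called in both Th9 libraries and in Th17 library 3. In Th9 library 1 the peak ran from 78961793 to 78961967 at a fold enrichment of 7.47 (−log10 q 8.08), rank 175 of 1709. In Th9 library 2 its limits were 78961731 and 78961959 at a fold enrichment of 10.7 (−log10 q 14), rank 22 of 241. In Th17 library 3 the limits were 78961744 and 78961992 at a fold enrichment of 8.71 (−log10 q 10.5), rank 410 of 4111. The median fold enrichments of the 3 lists were 5.54, 6.40 and 5.65. These 3 libraries listed the region against each of the 3 controls, and Th17 library 4 listed it in none. The AP-1 site, from 78961847 to 78961853, is 9 bp from the summit of Th9 library 2. The nearest start site is that of *Ube2e3*, a ubiquitin-conjugating enzyme gene, not that of *Itga4*.

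Closer to *Itga4*, Th17 library 3 had 2 peaks whose nearest start site was that of *Itga4*. The one from 79122645 to 79122830, 133 kb upstream, had 5.65-fold enrichment (−log10 q 4.12). The one from 79124354 to 79124533, 131 kb upstream, had 6.78-fold enrichment (−log10 q 6.0). Their AP-1 sites lay 31 bp and 16 bp from the summits. Between these and the farthest region, Th9 library 1 had a peak from 78972432 to 78972650, 283 kb upstream (fold enrichment 5.03), and Th17 library 4 had one from 79052357 to 79052569, 203 kb upstream (fold enrichment 7.02), in lists with medians of 5.54 and 7.48. The nearest start site of these peaks at 283 and 203 kb was also that of *Ube2e3*. Thus each of the 4 libraries had a peak between 131 and 294 kb upstream of *Itga4*, although no single region was called in all 4. Those limits were taken from the peaks after they were seen. The share of all genes with peaks of every library in such a span was not computed.

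*Itgb1* spans 128685654 to 128733579 of chromosome 8 (plus strand), with no other curated gene in its window. Th17 library 3 had 2 peaks upstream for which *Itgb1* had the nearest start site. The nearer, from 128603106 to 128603574, was 82.5 kb upstream at a fold enrichment of 7.34 (−log10 q 7.04), and it matched none of the motifs. The farther, from 128535765 to 128535943, was 150 kb upstream at a fold enrichment of 6.75 (−log10 q 7.95), and it was listed against IgG only at 8.42 and against input only at 5.0. Th17 library 4 listed an overlapping peak, from 128535800 to 128535974, against input only, at a fold enrichment of 7.02 (−log10 q 5.71), where the median of its list against both controls was 7.48. Neither Th9 library listed the region under any control. Its 2 composite sites lie 33 bp and 48 bp from the summit of Th17 library 3.

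The mucosal homing chains and the selectin ligand had no peak within 50 kb. *Itgb7* (chromosome 15, from 102215994 to 102233405), *Itgae* (chromosome 11, from 73090505 to 73147449) and *Selplg* (chromosome 5, from 113817798 to 113832528) had no peak in their windows in any of the 12 lists. In Th17 library 3, with the most peaks, the closest summits lay 463 kb from *Itgb7*, 707 kb from *Itgae* and 1063 kb from *Selplg*. Of 26089 genes on chromosomes with a peak, 79.6%, 90.1% and 96.1% had a closer peak in this library. Over the 4 libraries these shares ranged from 27.1% to 88.4% for *Itgb7*, from 44.95% to 90.1% for *Itgae* and from 11.9% to 96.1% for *Selplg*, with the lowest for *Itgb7* and *Selplg* in Th17 library 4, so these genes were not far from peaks in every library. The closest peak to *Selplg* in any library was 769 kb away, in Th17 library 4. A site with no peak was below the threshold of that library and was not shown to be unbound.

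Distances to the nearest peak differed between the genes and between the libraries. In Th17 library 3 the order was *Itgav* at 0 kb, *Itgal* at 7.93 kb, *S1pr1* at 32.6 kb, *Itgb1* at 82.5 kb, *Itga4* at 131 kb, *Itgb7* at 463 kb, *Itgb2* at 595 kb, *Itgae* at 707 kb and *Selplg* at 1063 kb. The median over the 9 genes was 131 kb in this library against 180 kb over all genes. The medians of the 9 genes and of all genes were 856 and 493 kb in Th9 library 1, 5207 and 3607 kb in Th9 library 2, and 3115 and 5115 kb in Th17 library 4. The order of Th17 library 3 was not kept in the others. *Itgal* was the farthest gene in Th9 library 2 (13064 kb) and in Th17 library 4 (9160 kb), but the closest in Th9 library 1 (87.6 kb). *Selplg*, last in Th17 library 3, lay 769 kb from a peak in Th17 library 4. *Itga4* was the gene with the shortest distance in Th9 library 2 and in Th17 library 4, the libraries with the fewest peaks. In those libraries 7.11% and 4.09% of the 26089 genes had a closer peak, and in Th9 library 1 and Th17 library 3 the shares were 34.1% and 40.8%.

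**Figure D4:**
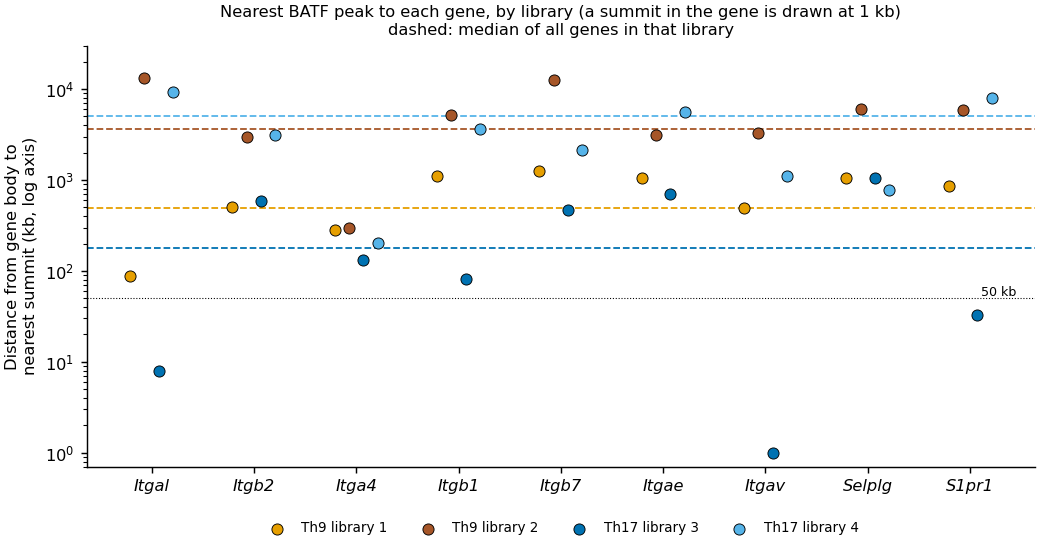
Distance from each gene body to the nearest BATF summit (y axis, kb, log axis) in each of the 4 libraries, with a summit inside the gene drawn at 1 kb. Dashed lines are the medians over all genes in each library and the dotted line is the 50 kb limit; 3 points, all of Th17 library 3, lie under it, and the 4 points of *Itga4* lie between 131 and 294 kb.

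The members were set beside 45 other genes of adhesion and homing, all of which matched a RefSeq gene. A peak was present at 8 of them in Th9 cells (17.8%), at 14 in Th17 cells (31.1%) and at 4 in both (8.89%), where the shares of all genes were 10.4%, 22.0% and 3.75%. All 14 in Th17 cells come from library 3. These shares were not tested against those of all genes, and some of the peaks lay nearest the start site of a gene outside the list. Among 14 other integrin chains the counts were 3 in Th9, 5 in Th17 and 2 in both. In Th9 library 2 the same peak lay in the windows of *Itga2* and of another integrin chain and was counted for both. Among 8 genes of S1P signalling and egress they were 2, 3 and 1, among 9 genes of integrin activation 2, 4 and 1, and among 8 selectins, sialomucins and their glycosylation enzymes 1, 2 and 0. The 6 ligands of these receptors had none, and Th17 library 4 had a peak at 0 of the 45.

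Of the 45 genes, 4 had peaks in more than 1 library. *Klf2*, a transcription factor known to drive *S1pr1* expression in T cells, had overlapping peaks in Th9 library 1 and Th17 library 3, between genes and 12.3 kb from its start site. The peak of Th9 library 1, from 72331265 to 72331543 on chromosome 8, had 10.1-fold enrichment (−log10 q 13.2). The peak of Th17 library 3, from 72331170 to 72331427, had 9.03-fold enrichment (−log10 q 10.5). Th17 library 3 also had a separate peak in the *Klf2* window, from 72343832 to 72344026, in an intron of *Eps15l1*. It had 7.90-fold enrichment (−log10 q 8.14) and holds a composite site. The median fold enrichments of these lists were 5.54 and 5.65. The shared region holds an AP-1 site, shown around the summit of Th9 library 1.
Klf2, downstream, chr8:72331271-72331471: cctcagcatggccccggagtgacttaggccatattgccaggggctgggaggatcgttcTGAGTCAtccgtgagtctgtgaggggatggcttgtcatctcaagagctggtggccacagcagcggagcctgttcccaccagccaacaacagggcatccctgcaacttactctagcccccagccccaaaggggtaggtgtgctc

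*Skap1*, an adaptor of integrin activation, had overlapping intronic peaks in Th9 library 1 (fold enrichment 11.1) and Th9 library 2 (9.07), and a separate peak in Th17 library 3 (6.21), in lists with medians of 5.54, 6.40 and 5.65. *Itga2* and *Itgb5*, integrin chains, had peaks in 2 libraries each at places that did not overlap between the libraries.

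As a check of the cell types, peaks were counted at genes known to mark them, which shows binding and not expression. *Il9* and *Irf4* had peaks in Th9 library 2 only and *Spi1* had none. A peak between *Il17a* and *Il17f* was listed in Th17 libraries 3 and 4 and also in Th9 library 1, and *Il23r* had a peak in Th9 library 1 only. Th9 library 1 thus had peaks at these Th17 genes and at none of the Th9 genes, so the check did not bear out its cell type. *Cd4* had a peak in Th17 library 3 and *Cd3e* in none.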

How the data were processed

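BATF ChIP-seq peak lists of 4 libraries of Th9 and Th17 cells, 2 per cell type, were analysed. According to Methods and the processing notes of the submitters, reads were trimmed with Trim Galore 0.4.3, aligned to mm10 with bowtie2, and peaks were called with MACS2 2.1.0 in paired-end mode at a q threshold of 0.01 with duplicates kept. For each peak the authors deposited its position and summit, the −log10 of its p-value and q-value, and a fold enrichment, which is a ratio to the local expectation. The control of a list was read from its name. Methods gives only an approximate number of reads per library, the same for all. The lists hold no read counts, so the depth of each single library is unknown, and precision is limited by the 199 to 4111 peaks per library. Fold enrichments were therefore not tested between libraries, and where they stand side by side the medians of their lists are given.

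Genes came from RefSeq annotation release 108.20200622 on GRCm38.p6. Windows were the gene record with 50 kb to either side, a promoter was within 1000 bp of a curated start site, regions sharing 1 bp were merged, and motifs were searched within 100 bp of the summit. The libraries were compared by two-sided exact permutation tests, with 3 tests adjusted together. Nothing in the labels says whether the libraries came from separate animals or cultures, so a p-value could speak only of these libraries. Here the member peaks were all in Th17 library 3, which fixed the p-values, so they measure no spread. All 9 genes were named, and of the 45 companion genes those with peaks in 2 or more libraries. Genes most alike in pattern were to be named for members with peaks in 2 or more libraries, of which there were 0. The genes and lists were chosen with earlier results of these data known. The result for an item among the marker genes is not reported here. Sites outside the windows and the *Klf2* sequence were picked after their values were seen. Alternatives were the single controls, a minimum −log10 q of 5, windows of 10 and 100 kb, the nearest start site at any distance, equal numbers of top peaks, each library left out, 50% reciprocal overlap, a 50 bp motif window and a looser AP-1 motif. Window and motif counts were tested on simulated data. The software was Python 3.11.15 (pandas 2.3.3, numpy 2.4.6, pysam 0.24.0, scipy 1.17.1) and matplotlib 3.10.9 for figures.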

Additional observations from a re-analysis of the deposited data

Results flagged for a closer look

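Peaks listed in these windows against input only, and absent from the lists against IgG and against both controls, lie in data that the counts of genes did not use. They are the *Itgb2* window peak of Th9 library 2, with a fold enrichment of 5.33, and the 2 peaks in exon 2 of *S1pr1* in Th17 library 3, with fold enrichments of 6.78 and 5.65. No other library listed a peak at any of these places, and the cause was not tested.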

How the results depend on the processing

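In the lists against both controls and the 50 kb windows, every member peak comes from Th17 library 3. Without it, the genes with a peak in Th17 cells, the member regions and all 3 differences between cell types were 0, and the same was so with each library limited to its 199 top peaks. Over the libraries left out in turn, genes with a peak in Th17 cells ranged from 0 to 3, member regions from 0 to 4, the difference in member peaks per library (Th17 minus Th9) from 0 to 4, in genes with a peak per library from 0 to 3, and in member peaks as a percent of all peaks from 0 to 0.0973. With the lists against input only, this last difference reversed to −0.149 percentage points, 1 gene (*Itgb2*) had a peak in Th9 cells, and there were 7 regions. That *Itgb2* peak stood in a list of 224 peaks (Th9 library 2), where the list of Th17 library 3 held 4024. With a window of 100 kb, 1 gene (*Itgal*) had a peak in Th9 cells and in both cell types, and there were 7 regions. With the nearest start site at any distance, 5 genes had a peak in Th17 cells, over 8 regions. A minimum −log10 q of 5 or a window of 10 kb left 2 regions. The share of regions with an AP-1 site was 0% with that minimum and with a motif window of 50 bp, 14.3% with the lists against input only and with the 100 kb window, 37.5% with the nearest start site and 50% with the 10 kb window. Of 101 recomputed values, 79 kept their direction, stayed within 1.5 times a reported count or, for the AP-1 share, lay within its binomial interval. That number does not measure stability. Neither Th9 library held a member peak, so leaving either of them out could change no value. Other values were 0 before and after, and the binomial interval is wide enough to take in most shares. The alternatives for the percent and for genes per library were added after the data were seen. No AP-1 share could be given where no region was left. No paired analysis was possible because no replicate number occurs in both cell types. The cause of these changes was not tested.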
